A study of Arabidopsis thaliana with 12 samples.

Results

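In stem cell nuclei of ddm1 plants, 3225 transposable elements (TEs) of Arabidopsis thaliana gave more bisulfite sequence than in wild type, both without heat and after heat, in the amount of sequence recovered relative to genes. They were taken from 19574 TEs with a mean of at least 100 CHH cytosine calls over the groups and a value in each of the 6 groups, so that the set holds 16.5% of them. A further 39 TEs had that mean but no value in 1 or more groups and were left out. Coverage here is the number of cytosine calls of a TE in the CHH context, where H is A, C or T, divided by the summed CHH calls of all nuclear gene identifiers of the same group and given per 1000000 gene calls, here called scaled calls. A TE entered the set when its scaled coverage in ddm1 was at least 1.4 times that in wild type in the control pair and again in the heat pair. The ddm1/wt coverage ratios therefore chose the members and are given as a description without a test. A larger number of calls from a TE can come from additional copies of its sequence, within the chromosomes or outside them, or from better recovery of its DNA through sorting, conversion, amplification and alignment. These cannot be told apart from the number of calls.

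The study compared DNA methylation in nuclei of shoot stem cells, sorted from inflorescence apices at day 28 (D28) by fluorescence of a reporter, in which the CLV3 promoter drives a histone H2B fused to mCherry (pCLV3::H2BmCherry). All plants were Col-0 and carried this reporter. The line with the reporter alone was called wt, the mutant poliv (nrpda-3) lacks RNA polymerase IV, and ddm1 (ddm1-10) lacks the chromatin remodeller DDM1. Each mutant was represented by 1 allele, crossed with the reporter. Control plants of each genotype were kept without heat, and the heat-triggered plants were held at 37 °C for 1 day, which ended at D7, and recovered for 21 days. Each of the 6 groups, wt, poliv and ddm1 as control and after heat, comprised 2 libraries, which the table analysed here combines in 1 set of columns per group. No value has an error between replicates for that reason, and intervals given below cover counting error only. These intervals treat calls as independent, and because several calls come from 1 read they are too narrow.

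DDM1 is a nucleosome remodeller that lets the maintenance methyltransferases reach DNA packed with histone H1 in heterochromatin, and ddm1 mutants lose CG and CHG methylation over most TEs. TEs that are silenced in wild type become transcribed in ddm1, and some of them are known to transpose and gain copies over generations. RNA polymerase IV makes the precursors of small RNAs that direct CHH methylation, mainly at short TEs and TE edges, whereas long heterochromatic TEs receive CHH methylation from the methyltransferase CMT2 without it.

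Summed CHH calls over all features ranged from 138837280 in wt control up to 227999199 in wt heat. Those over genes, which scaled the coverage, ranged between 117499509 and 195222752. As a check of the labels, CHG methylation over DDM1 (AT5G66750) was 0.434%, 0.440% and 49.5% in wt, poliv and ddm1 control, with 48.7% in ddm1 heat. Over NRPD1 (AT1G63020), the gene of the largest RNA polymerase IV subunit, it was 0.730%, 14.9% and 6.71%. Chloroplast cytosines, which are not methylated and so report unconverted bases, were called methylated in CHH at 0.390% to 0.450% in the control groups and 0.703% to 0.805% in the heat groups. The assay measures no transcripts, so that the identity of the sorted nuclei was not checked here.

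Members gave a larger part of the sequence in ddm1 than in wt and poliv. Together they made up 4.28% of the nuclear CHH calls in wt control, 4.30% in poliv control and 6.77% in ddm1 control. After heat their share was 3.88% in wt, 3.98% in poliv and 6.76% in ddm1. The share of wt and poliv was thus close in either treatment and that of ddm1 stood above both. The median scaled coverage of a member was 2.73 scaled calls in wt control, 3.26 in poliv control and 4.91 in ddm1 control, and 2.58, 2.72 and 4.67 after heat.

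The median ddm1/wt ratio of members was 1.70 without heat and 1.76 with it, against 1.27 and 1.14 over all TEs with the minimum coverage. Well-covered TEs were shifted as a whole. Over all TEs with a mean of 1000 calls or more, members included, the medians were 1.292 and 1.396. From 5000 calls they were 1.338 and 1.483, so that in the heat pair the typical well-covered TE lay near the threshold. Most members lay near the threshold. The smaller of the 2 ratios was from 1.4 to under 1.6 in 1673 members, from 1.6 to under 2 in 1100, from 2 to under 2.5 in 322, from 2.5 to under 3 in 84, from 3 to under 4 in 34, and at least 4 in 12. Just inside the threshold stood AT2TE12965, AT1TE54590, AT4TE17165, AT2TE07745 and AT3TE45580, and just outside it AT2TE17550, AT1TE63910, AT4TE56960, AT4TE89595 and AT1TE52425, all with a smaller ratio within rounding of 1.4. Values on both sides of the threshold followed each other without a gap.

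Taken alone, the control pair held 7103 TEs past 1.4 (36.3%) and the heat pair 5393 (27.6%). Of those past it in the control pair, 45.4% were also past it in the heat pair, and of those past it in the heat pair 59.8% were also past it in the control pair. The opposite change, coverage in ddm1 at most 1/1.4 of wt in both pairs, was found in 96 TEs (0.49%). Members were unequally covered. Their mean CHH coverage over the groups ranged from 100 to 49864 calls with a median of 589, and 1367 members had 1000 calls or more, which is 30.8% of the 4433 TEs with that coverage. The other 1858 members were 12.3% of the TEs with fewer calls.

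**Figure D1:**
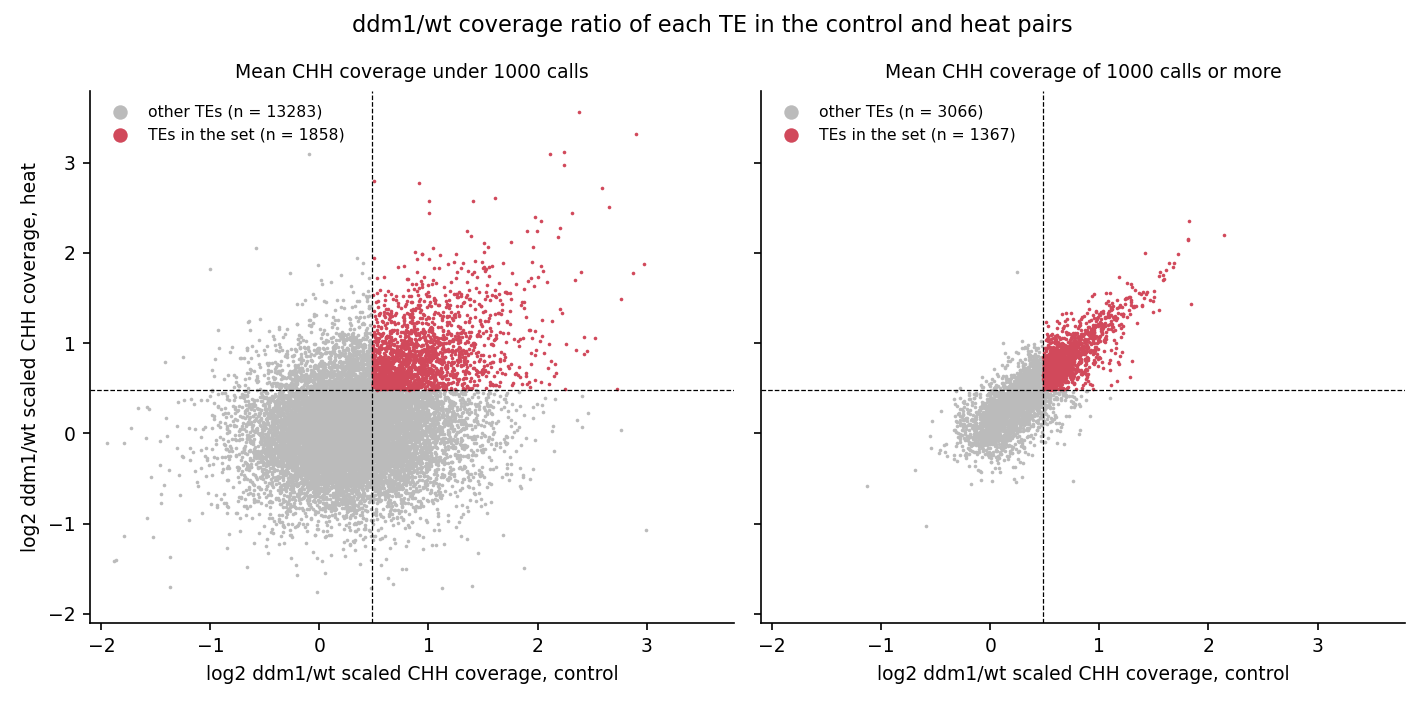
Each point is a TE with its log2 ddm1/wt ratio of scaled CHH coverage in the control pair (x axis) and the heat pair (y axis), on the left for TEs with a mean under 1000 calls and on the right for those with 1000 or more. Dashed lines mark a ratio of 1.4, red points are the 1858 and 1367 members and grey points other TEs, and 1 TE of the others lies outside the axes. The cloud on the left is wide and round, and that on the right is narrow and lies along the diagonal.

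The 2 pairs share no columns, and their ratios went together mainly in well-covered TEs. Pearson's r between the log2 ratios of the control and heat pairs was 0.341 across all 19574 TEs, 0.289 across the 15141 with fewer than 1000 calls and 0.799 across the 4433 with 1000 calls or more. Within these it was 0.836 from 5000 calls. These are correlations across TEs of the same 4 groups and not across samples, and neighbouring or similar TEs can share reads. The share of TEs that belong to the set was 12.9% at 100 to under 200 calls, 10.9% at 200 to under 500, 14.7% at 500 to under 1000, 26.6% at 1000 to under 5000 and 37.8% from there on. The plot of the ratios in both pairs shows the same contrast. Among members with few calls, counting intervals of the ratios are given below for AT3TE48640 and AT1TE69805. The values of other such members are given without an interval and are less precise than their digits.

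Coverage in the other contexts was not used by the rule but comes from the same reads and the same contrast, and is given as a description. The median ddm1/wt ratio of CG calls was 1.76 without heat and 1.85 with it over the 2466 members with CG values in all groups, and of CHG calls 1.70 and 1.81 over 2249 members. In CG, 2115 members (85.8%) were past 1.4 in both pairs, against 28.3% of all TEs, and in CHG 1933 (85.9%), against 24.8%.

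The highest ratios belonged to TEs with few calls. AT3TE48640 on chromosome 3 had the largest smaller ratio. It gave 35 CHH calls in wt control, 79 in poliv control and 399 in ddm1 control, and 37, 38 and 323 after heat. The ddm1/wt ratios were 7.46 (95% exact interval 5.28 to 10.9) and 9.96 (7.08 to 14.4). Both ddm1 groups lay far above the 4 others, which held 79 calls or fewer. AT1TE69805 on chromosome 1 followed the same order, with 92, 276 and 885 calls in wt, poliv and ddm1 control and 155, 171 and 772 after heat, at ratios of 6.30 (5.07 to 7.89) and 5.68 (4.78 to 6.80). Here poliv control also stood above wt control. After heat the unscaled calls of poliv and wt were near each other, but poliv heat had 159302006 gene calls and wt heat 195222752. In scaled calls poliv thus stood above wt after heat as well. Of the 12 members with the largest smaller ratio, 11 had a mean under 500 calls. They were AT3TE48640, AT2TE15465, AT1TE69805, AT3TE48665, AT3TE48750, AT3TE62945, AT2TE22510, AT3TE48645, AT3TE48705, AT5TE37305 and AT1TE70815, 5 of them within 1 run of neighbours on chromosome 3 described below.

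AT5TE20395 on chromosome 5 was the one among these 12 with high coverage. It gave 2839 CHH calls in wt control, 4555 in poliv control and 19196 in ddm1 control, and 4645, 4048 and 18617 after heat. Scaled to genes these were 24.2, 24.6 and 107 scaled calls in the control groups and 23.8, 25.4 and 109 after heat. Both ddm1 groups were thus more than 4 times the 4 other groups, which lay within 23.8 to 25.4. The ddm1/wt ratio was 4.43 (4.25 to 4.60) without heat and 4.57 (4.43 to 4.72) after it, and in CG calls it was 4.20 and 4.85. The same TE was methylated in CG at 85.2% (Wilson 95% interval 81.4 to 88.4) in wt control, 81.2% (77.8 to 84.2) in poliv control and 1.15% (0.804 to 1.65) in ddm1 control, with 88.9%, 84.0% and 1.23% after heat. CHG was at 31.2% in wt control beside 0.631% in ddm1 control, and CHH at 4.97% beside 0.729%. Nearly all calls recovered in ddm1 were thus of unmethylated cytosines.

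A group of 32 well-covered members had a mean of 1000 calls or more and a smaller ratio of 2.5 or more, limits that were set after the values had been seen. Their median ddm1/wt ratios were 2.87 (control pair) and 2.99 (heat pair). AT2TE42810 on chromosome 2 gave 39.3, 37.0 and 138 scaled calls in wt, poliv and ddm1 control and 29.0, 33.0 and 128 after heat. AT3TE62035 on chromosome 3 gave 10.02, 10.2 and 35.4 and, after heat, 7.25, 9.15 and 36.9. AT2TE27460 on chromosome 2 gave 12.4, 12.7 and 43.8 and, after heat, 8.89, 10.2 and 39.7. In all of them both ddm1 groups lay well above the 4 others, and the wt heat group was the lowest of the 6. Their ddm1/wt ratios were 3.51 and 4.42 for AT2TE42810, 3.53 and 5.09 for AT3TE62035, and 3.52 and 4.46 for AT2TE27460. Across the 32, the poliv/wt ratio of either pair stayed between 0.747 and 1.41 and the heat/control ratio in ddm1 between 0.829 and 1.09. Their CG levels were 80.4% to 91.6% in wt control, 81.2% to 91.7% in poliv control and 0.654% to 18.8% in ddm1 control. AT5TE20395 had the largest smaller ratio of them, and AT1TE22850, which is on the study's list of TEs with a potential heat-factor site, had ratios of 3.02 and 3.28.

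**Figure D2:**
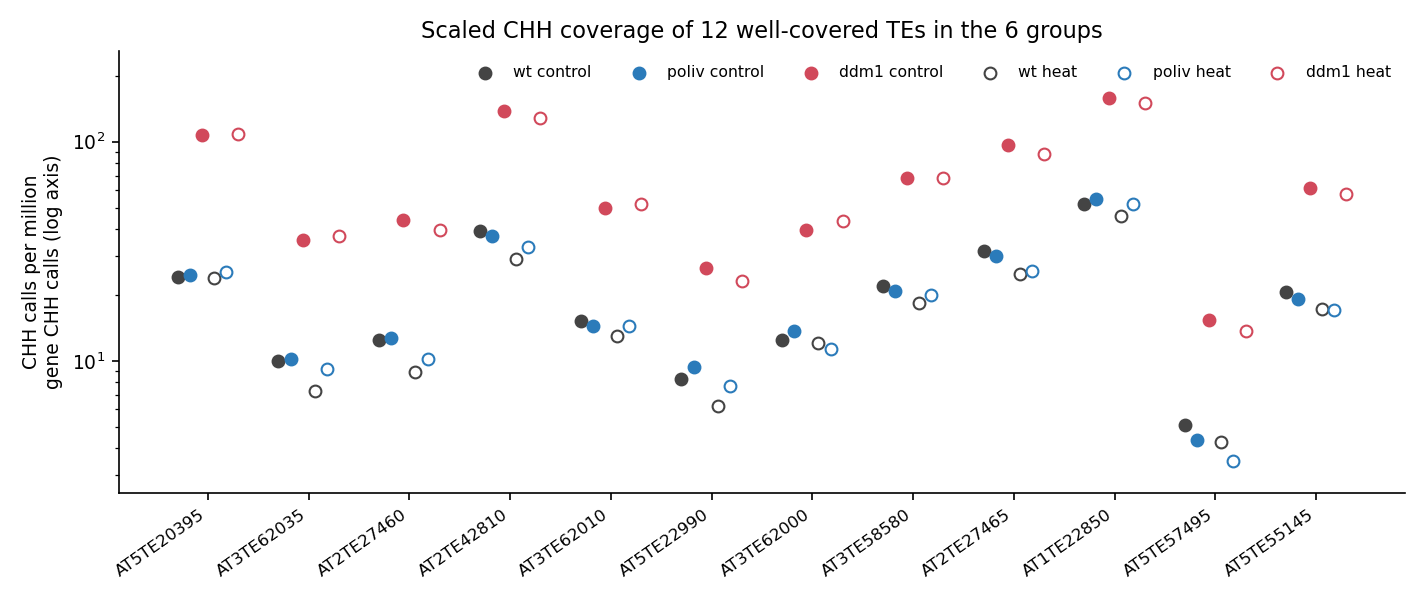
Scaled CHH coverage (y axis, calls per 1000000 gene calls, log axis) in the 6 groups for the 12 TEs with the largest smaller ddm1/wt ratio among members with a mean of 1000 calls or more. Filled points are control and open points heat groups, each 1 pooled value, and in each of the 12 TEs both red ddm1 points lie above the 4 points of wt and poliv.

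Members with the most calls had moderate ratios. AT5TE41250 on chromosome 5, with a mean of 49864 calls, gave 252, 250 and 395 scaled calls in wt, poliv and ddm1 control and 228, 241 and 407 after heat. AT2TE21760 on chromosome 2 gave 230, 221 and 425, and 195, 224 and 424 after heat. In both TEs wt and poliv were within a narrow range and the ddm1 groups well above it. Their ratios were 1.57 (exact interval 1.54 to 1.59) and 1.79 (1.77 to 1.81) for AT5TE41250, and 1.85 (1.82 to 1.87) and 2.17 (2.14 to 2.20) for AT2TE21760. The next by coverage were AT3TE50125 (1.46 and 1.56), AT2TE16230 (1.79 and 2.14) and AT3TE61290 (1.94 and 2.09).

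The poliv groups took no part in the rule, apart from the coverage minimum, and the summed coverage of the set there was close to that of wt, at 1.01 and 1.02 times wt. The median poliv/wt coverage ratio of members was 1.07 without heat and 1.03 after it, against 1.08 and 0.945 over all TEs. For the summed coverage, ddm1 reached 1.66 and 1.84 times wt. Members with few calls did stand higher in poliv. In the 1858 with a mean under 1000 the median poliv/wt ratio was 1.27 without heat and 1.06 after it, against 1.15 and 0.911 over all TEs with so few calls. Of these 1858, 706 (38%, background 26.2%) were at 1.4 or more in the control pair and 322 (17.3%, background 6.75%) in the heat pair. A poliv/wt ratio of 1.4 or more in both pairs was found in 152 members (4.71%), against 1.76% of all TEs, and all 152 had a mean under 1000 calls. Since poliv and ddm1 were compared with the same wt columns, a low wt value raises both ratios. Among the 1367 well-covered members 0 had a ratio of 1.4 or more in both pairs, and the ratios were 0.998 and 1.01 in the median, with 5th to 95th percentiles of 0.878 to 1.21 and 0.864 to 1.19. Compared with poliv in place of wt, ddm1 was higher by 1.4 or more in both pairs in 2040 members (63.3%, background 14.8%), and in 1185 of the 1367 well-covered ones (86.7%). The ddm1 columns in these ratios are those that chose the members, so the counts are a description.

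The highest and the lowest poliv/wt ratios were in poorly covered members. AT4TE26550 on chromosome 4 gave 0.221, 1.06 and 0.991 scaled calls in wt, poliv and ddm1 control and 0.461, 0.565 and 0.783 after heat, so that poliv was as high as ddm1 without heat. AT2TE35805 on chromosome 2 gave 0.383, 2.06 and 1.13, and 0.645, 0.942 and 1.17 after heat. AT1TE04675 on chromosome 1 completed the 3 highest. The lowest were in AT3TE63920, AT3TE50735 and AT3TE67165, with AT3TE63920 at 1.13, 0.790 and 1.71 scaled calls in the control groups and 0.902, 0.2197 and 1.4 after heat. These 6 TEs had means of 119 to 184 calls.

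Heat 21 days before harvest went with small differences in the members' coverage. The median heat/control ratio was 0.914 in wt, 0.864 in poliv and 0.971 in ddm1, where all TEs had 0.967, 0.844 and 0.921. In well-covered members it was 0.897, 0.905 and 0.993. Ratios of 1.4 or more were found in 192 members in wt (5.95%, background 12.7%), 55 in poliv (1.71%, background 2.01%) and 50 in ddm1 (1.55%, background 2.88%). None of the 50 had 1000 calls or more, so that no well-covered member had 1.4 times its control coverage after heat in ddm1. The wt and ddm1 groups were used by the rule in both treatments. How 1 library differed from the other of its group cannot be seen in these columns.

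The members lay in the strongly methylated part of the TEs. Of TEs with under 5% CG methylation in wt control, 0.587% belonged to the set, and the share was 1.03% at 5 to under 20%, 3.24% at 20 to under 50%, 15.6% at 50 to under 80%, 34.5% at 80 to under 90% and 25.5% from 90%. By CHG in wt control the share was 0.503% under a level of 5%, 9.63% at 5 to under 20%, 26.6% at 20 to under 50%, 31.5% at 50 to under 80% and 22.8% from 80%. By CHH it was 4.36% under 1%, 30.1% at 5 to under 10% and 13.0% from 20%. Thus TEs of high CG and CHG and moderate CHH methylation held the largest shares of members, and those without CG methylation almost none. Grouped by the levels in poliv control, which the rule did not use, the shares had the same shape, from 1.05% of TEs under 5% CG to 33.4% at 80 to under 90%. The part of methylation in the number of calls recovered was not tested.

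**Figure D3:**
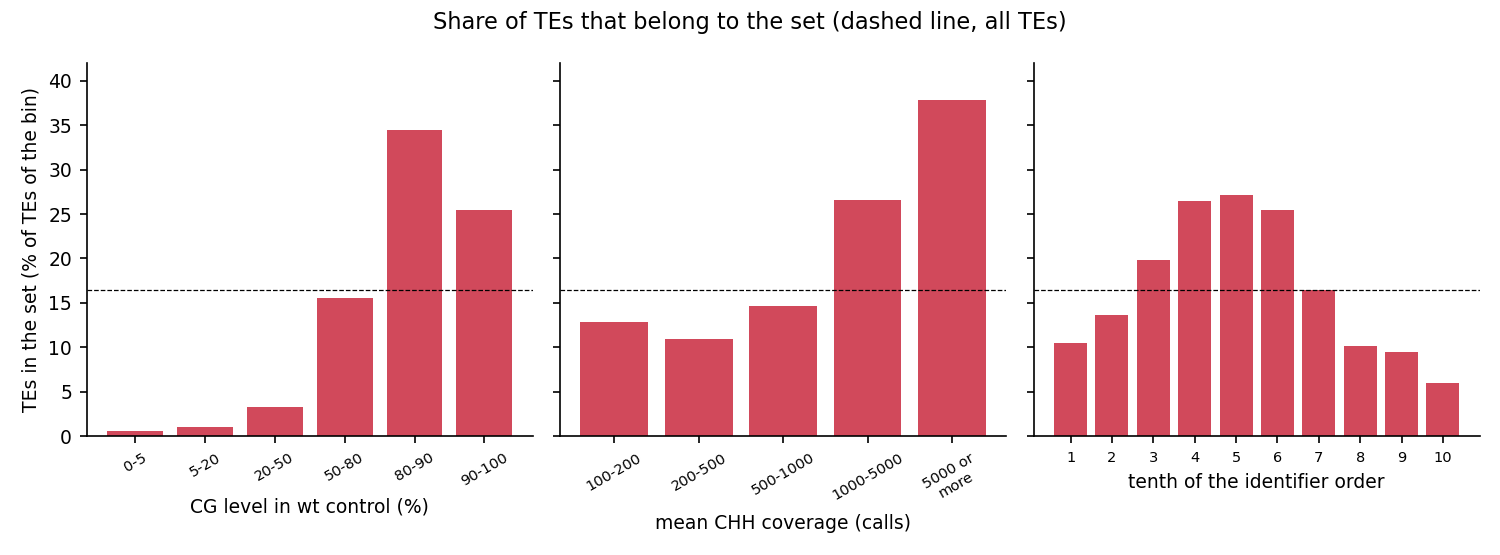
Share of TEs that belong to the set (y axis, % of the TEs in each bin, no error bars since each bar is a count) by CG level in wt control, by mean CHH coverage and by 10 equal parts of the identifier order along the chromosomes. The share rises from 0.587% to 34.5% with CG level, reaches 37.8% in the best-covered TEs and peaks at 27.1% in the 5th part, and the dashed line is the 16.5% of all TEs.

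TE identifiers are numbered along each chromosome, and members were spread over all 5. Chromosome 3 had the highest share, 766 of 4010 TEs (19.1%), followed by chromosome 4 with 549 (17.0%), chromosome 2 with 623 (16.1%), chromosome 5 with 656 (15.7%) and chromosome 1 with 631 (14.7%). Along the order of identifiers the share went up from 10.5% in the first of 10 equal parts to 27.1% in the 5th, and was 5.97% in the last. On chromosome 3 it was 4.74% in the first and 34.9% in the 6th part. Members also stood beside each other. The next TE in the order was a member for 33.4% of members and for 13.1% of other TEs. Adjacent TEs may overlap or be pieces of 1 insertion, so that they can share reads and are not independent. In all, 928 members formed 237 runs of 3 or more, 772 formed 386 pairs, and 1525 stood alone.

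The longest run held 15 members, from AT3TE48590 to AT3TE48750 on chromosome 3. Summed over the run, the calls were 6345 in wt control, 10004 in poliv control and 16501 in ddm1 control, and 9610, 7345 and 15650 after heat. This gave ddm1/wt ratios of 1.70 and 1.86 and poliv/wt ratios of 1.00 and 0.937. The ratio was uneven within the run. The first TE, AT3TE48590, held most of the calls at a ratio near the threshold, and without it the 14 others summed to 1053, 1791 and 5158 calls in wt, poliv and ddm1 control and 1603, 1261 and 5093 after heat. Their ddm1/wt ratios were 3.21 and 3.63 and their poliv/wt ratios 1.08 and 0.964. Of the 14, AT3TE48665 gave 0.357, 0.335 and 1.87 scaled calls in the control groups and 0.184, 0.264 and 2.18 after heat.

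**Figure D4:**
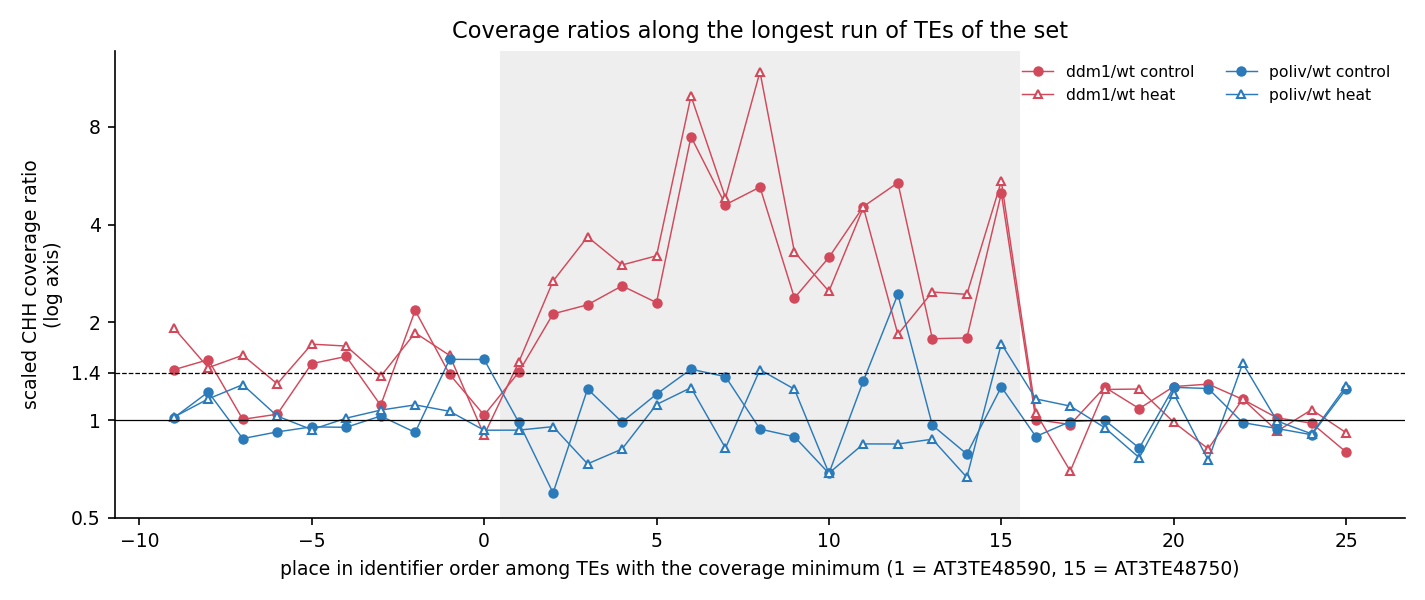
Ratio of scaled CHH coverage (y axis, log axis) for TEs in identifier order (x axis) around the run from AT3TE48590 to AT3TE48750, which is shaded. Red is ddm1/wt and blue poliv/wt, filled for the control and open for the heat pair, with dashed and solid lines at 1.4 and 1. The red ratios reach 7.46 and above within the run and are about 1 at the next TE, while the blue ratios scatter around 1. By definition a run ends where a TE outside the set follows.

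The next runs were more even. The 11 members from AT5TE37260 to AT5TE37325 on chromosome 5 summed to ratios of 1.76 and 1.96 in ddm1 and 1.04 and 0.957 in poliv. From AT3TE57130 to AT3TE57170 there were 9 members, with 1.58 and 1.73 in ddm1 and 1.00 and 1.01 in poliv. Another 9 ran from AT5TE43370 to AT5TE43430, with 1.63 and 1.82 in ddm1 and 0.975 and 1.03 in poliv. The 8 members from AT4TE07390 to AT4TE07440 on chromosome 4 reached 1.85 and 2.40 in ddm1, beside 1.06 and 1.12 in poliv. That ddm1 lay above wt in both treatments in each of these runs was set by the rule, since runs hold only members. The poliv groups were near wt.

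Of TEs that the study lists for their response to heat, some were members. The study chose these lists from RNA of the same experiment, and that of heat-factor sites among TEs with more RNA in poliv inflorescences after heat. ONSEN (ATCOPIA78), the heat-induced Copia retrotransposon that makes extrachromosomal DNA, had 0 of its 8 copies in the set, beside 16.5% of all TEs. Without heat its copies had ddm1/wt ratios of 0.633 to 1.246, the lowest in AT1TE12295 with few calls, and after heat 1.21 to 3.46. AT5TE15240 gave 951, 1518 and 1721 CHH calls in wt, poliv and ddm1 control and 1294, 1836 and 3928 after heat, so that its ratio was 1.18 without heat and 3.46 after it. Of the 45 heat-induced TEs with the minimum coverage 12 were members (26.7%), and of 61 with a potential binding site for heat shock factors 23 (37.7%). Of the 12, 10 had 1000 calls or more, as had 33 of the 45 listed, so that 30.3% of the well-covered ones belonged to the set. Of the 23, 22 had 1000 calls or more, as had 56 of the 61 listed, so that it was 39.3% there, beside 30.8% of all TEs with that coverage.

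The 12 heat-induced members belonged mostly to Gypsy-type families. The paper describes the whole list as largely Copia and Gypsy elements. The share of each family in the list is not given here, so the families are no trait shown for members. AT5TE40100 (ATLANTYS2) gave 116, 112 and 230 scaled calls in wt, poliv and ddm1 control and 102, 112 and 232 after heat, with ratios of 1.99 and 2.28. AT3TE59480 (ATGP2) gave 165, 165 and 252, and 164, 172 and 253 after heat. Both were alike in wt and poliv and higher in ddm1. The others were AT2TE11540 (ATGP2), AT3TE57100, AT3TE57565, AT3TE59490, AT5TE45060 and AT5TE45075 (ATGP10), AT5TE45065 (ATHILA6A), AT1TE43225 (ROMANIAT5), AT2TE14285 (ATCOPIA8A) and AT5TE46155, a VANDAL20 element and so a DNA transposon of the MULE type. Among TEs with a potential heat-factor site AT4TE08445 on chromosome 4 gave 115, 118 and 255 scaled calls and, after heat, 102, 105 and 250.

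In ddm1 the members held little of the methylation they had in wt and poliv. The mean CG level was 87.0% in wt control, 86.6% in poliv control and 13.3% in ddm1 control, and 88.6%, 87.1% and 12.2% after heat. CHG was at 52.1%, 48.7% and 8.54% in the control groups and 50.9%, 48.4% and 9.13% after heat. CHH was at 6.11%, 4.51% and 2.23%, and 6.79%, 4.80% and 2.83% after heat. The other TEs with the minimum coverage started lower on average and ended alike. Without heat their mean CG was 57.8% in wt and 14.2% in ddm1, CHG 31.2% and 8.17%, and CHH 4.50% and 2.25%. Among TEs with 1000 calls or more, members and others hardly differed in median CG without heat. The medians of wt were 88.4% for members and 88.3% for others, and those of ddm1 6.92% and 7.27%. The wt means at that coverage were 88.0% for members and 75.5% for others. A lower level in ddm1 than in wt control was found in 99.4% of members in CG, 99.2% in CHG and 83.3% in CHH. Among the other TEs it was found in 79.8%, 72.5% and 60%. The ddm1 and wt groups are those of the rule, and these levels are therefore given without a test.

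**Figure D5:**
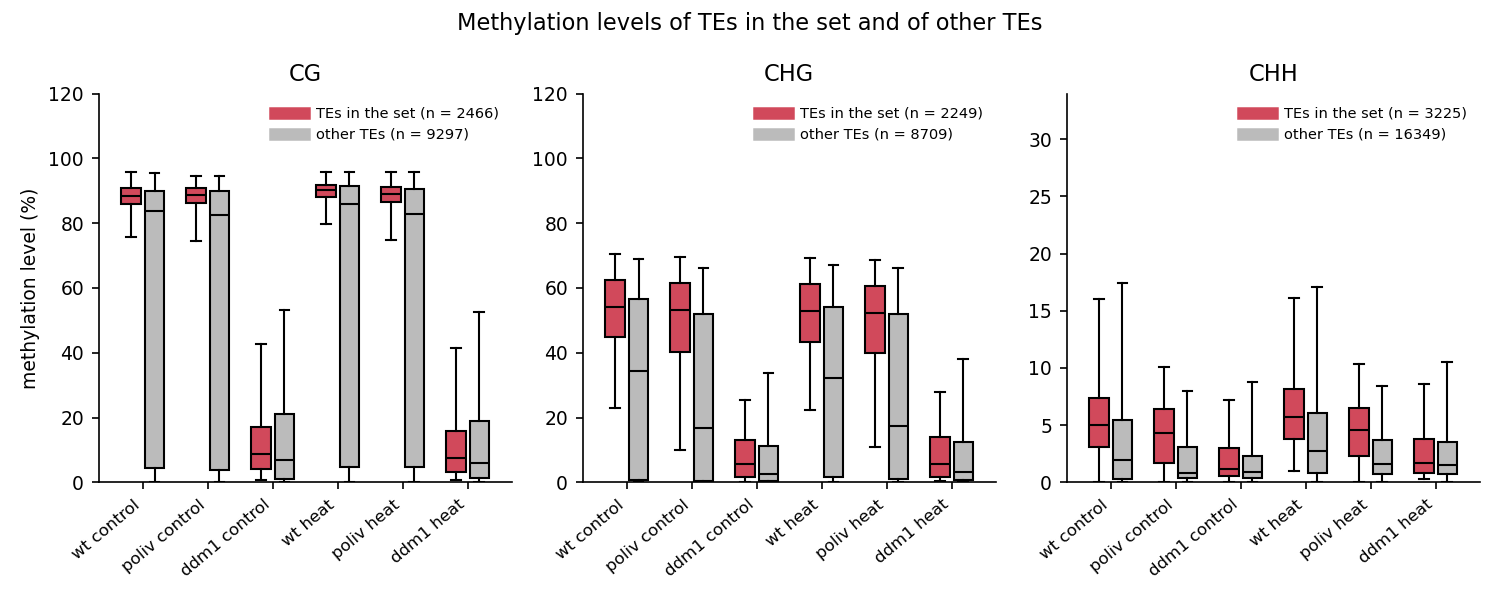
Methylation level (y axis, %) of members (red) and other TEs (grey) in the 6 groups for CG, CHG and CHH. Boxes span the quartiles with the median as a line and whiskers reach the 5th and 95th percentiles over TEs, not over replicates; in wt and poliv the red CG boxes are narrow and high, and in ddm1 the CG medians of both sets lie under 10%.

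Members differed in the CG methylation left in ddm1, which could be given for 2466 of them, while 759 had no CG value in some group. In both ddm1 groups 690 members were under 5% CG, and 48 stayed at 50% or more. Both kinds were more frequent among the other TEs. In ddm1 control 30.7% of members and 43.6% of other TEs were under 5%, and 2.68% and 5.95% were at 50% or more. Many of the other TEs were under 5% in wt control already, 25.4% of them against 0.527% of members. With 1000 calls or more, 35.1% of members and 37.2% of other TEs were under 5% in ddm1 control, and 0% and 9.06% in wt control. The 48 members at 50% or more in both ddm1 groups had mean coverages of 107 to 1011 calls. AT1TE83180 on chromosome 1 had the highest CG level in ddm1 control, at 92.2%, but without heat was at 24.5% in wt and 91.7% in poliv, and at 19.0%, 91.2% and 86.5% in wt, poliv and ddm1 after heat. It was thus more methylated in both mutants than in wt. AT3TE32925 kept 82.7% in ddm1 control beside 79.3% in wt control, and AT3TE76570 had 77.5% beside 98.1%. AT5TE33725 and AT5TE88740, both at 75.7% in ddm1 control, complete the 5 highest. Members with higher coverage ratios had less CG methylation left in ddm1. The median CG level in ddm1 control was 9.31% in members with a smaller ratio from 1.4 to under 1.6, 7.60% from 2 to under 2.5, and 1.93% in the 11 members with CG values from 4, a trend within the contrast that chose the members.

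CHH methylation of members in poliv differed between the well and the poorly covered. Members with 1000 calls or more had a mean CHH level of 5.77% in wt and 6.20% in poliv without heat, and 6.51% and 6.13% after it. Members with fewer calls were at 6.35% and 3.26%, and 6.999% and 3.81% after heat. CHG likewise was 55.6% and 55.1% in the former and 46.7% and 38.8% in the latter, both without heat. Number of calls follows TE length as well as depth, and TE length was not analysed here. Fisher's exact test was applied per TE to methylated and unmethylated calls of poliv and wt, two-sided, with Benjamini-Hochberg adjustment over all TEs with values, and a TE counted when it passed 0.05 in both pairs in the same direction. It compares the pooled libraries and not the genotypes, since the spread between libraries is not contained in it.

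By that test CHH was lower in poliv in 264 of 3225 members and higher in 24, against a background of 8.02% lower and 0.329% higher. Of the 264, 216 were among the 1858 members with under 1000 calls (11.6%, background 8.57%), and 48 among the 1367 others (3.51%, background 5.53%). The CHH backgrounds count all TEs with values. Under 1000 calls these were 20155 TEs, of which 15141 had the minimum coverage of the set. The 11.6% and 8.57% are therefore not matched in coverage, and a background limited to TEs with the minimum was not tested. CHG was lower in 85 of 2249 members and higher in 8 (background 4.93% and 0.125%). CG was lower in 29 of 2466 and higher in 2 (background 1.67% and 0.644%). When the statistic was scaled by its dispersion over all TEs, 9 calls were left in CHH (background 0.211%), 22 in CHG (0.876%) and 6 in CG (0.553%). AT1TE70480 on chromosome 1 had one of the 3 largest CG losses, with 84.6% in wt control, 5.66% in poliv control and 29.97% in ddm1 control, and 86.2%, 2.42% and 29.5% after heat (adjusted p = 1.3e-74 and 3.4e-96 for poliv against wt, Fisher's exact test). AT1TE31425 on the same chromosome had CHG levels of 67.7% in wt, 2.94% in poliv and 19.5% in ddm1 control, and 63.8%, 2.15% and 11.5% after heat. AT5TE23125 on chromosome 5, with the highest CHH level of the members in wt control, was at 65.4% there, 0% in poliv and 0.671% in ddm1, and at 64.0%, 0% and 0% after heat. By the 3 calls that a count of 0 allows, these zeros stand for levels of up to 1.72% in poliv control, 3.66% in poliv heat and 2.91% in ddm1 heat. In these TEs the level in poliv was below that in ddm1 or close to it, unlike the mean of the set. AT1TE83180 rose in CG in poliv in both pairs (adjusted p = 4.9e-15 and 3.4e-15, Fisher's exact test). With matched background and dispersion scaling together the calls of AT1TE70480, AT1TE31425 and AT1TE83180 were still made and that of AT5TE23125 was not.

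Heat was followed by few large differences in the members' methylation. In wt, CG was higher after heat in 171 members and lower in 2 (Fisher's exact test as above, background 2.76% and 0.124%), and the mean moved from 87.0% to 88.6%. In poliv 18 were higher and 16 lower (background 0.462% and 0.38%). In ddm1 53 were higher and 244 lower (background 1.07% and 3.85%), and the mean moved from 13.3% to 12.2%. In the well-covered members, CG was higher in wt in 160 (11.7%, background 6.67%) and lower in ddm1 in 209 (15.3%, background 8.04%), and in those with fewer calls in 11 (1%, background 0.507%) and 35 (3.18%, background 1.44%). A difference of at least 10 percentage points was found in 24 of the members called in wt (background 0.578%), 13 in poliv (0.487%) and 38 in ddm1 (1.39%). The test has no term for the spread between libraries. Dispersion scaling does not measure that spread either. With it 5 calls were left in wt (background 0.0495%), 1 in poliv (0.0413%) and 63 in ddm1 (0.8%).

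CHG was lower after heat in 10 members and higher in 0 in wt by Fisher's exact test (background 0.206% and 0.00894%). In poliv 3 were higher and 5 lower (background 0.0626% and 0.116%), and in ddm1 114 were higher and 84 lower (background 3% and 1.59%). CHH was higher in 345 and lower in 71 in wt (background 5.69% and 2.62%), 87 and 66 in poliv (background 2.51% and 1.32%) and 634 and 50 in ddm1 (background 10.4% and 1.32%). These counts went with coverage. In the well-covered members CHH was higher in wt in 257 (18.8%, background 15.4%) and in ddm1 in 490 (35.8%, background 33.2%), and in those with fewer calls in 88 (4.74%, background 3.55%) and 144 (7.75%, background 5.35%). The CHH backgrounds for fewer calls and for all TEs again include TEs under the minimum coverage of the set. They are not matched to the members in coverage. The chloroplast level of unconverted cytosines was higher in every heat group than in its control, and matching it between the groups turned the majority in 2 comparisons. After matching, CHG in ddm1 was higher in 86 members and lower in 126 (background 2.33% and 2.24%), and CHH in poliv was higher in 58 and lower in 118 (background 1.58% and 1.95%). CHH in wt was then higher in 208 and lower in 82 (background 3.51% and 2.79%), and in ddm1 in 187 and 89 (background 4.14% and 1.68%). With dispersion scaling alone 0 CHH calls in wt (background 0.0447%), 0 in poliv (0.102%) and 3 in ddm1 (0.0366%) were left.

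The members with the largest heat differences differed in direction. AT1TE34580 on chromosome 1 had less CHG methylation in ddm1 after heat than without it. Its CHG level was 72.3%, 70.3% and 13.0% in wt, poliv and ddm1 control, and 72.8%, 72.5% and 0.898% after heat (adjusted p = 6.9e-122 for ddm1, Fisher's exact test). The wt and poliv groups were alike in both treatments, and in ddm1 heat CG was down from 6.12% to 1.54% as well. AT2TE41170 on chromosome 2 went the other way. Its CHG level was 62.0%, 47.2% and 39.6% in the control groups and 59.1%, 58.0% and 69.5% after heat (adjusted p = 5.9e-07 for ddm1, Fisher's exact test). In poliv AT3TE77420 on chromosome 3 had CG levels of 76.8% without and 23.8% after heat (adjusted p = 2.3e-12, Fisher's exact test), beside 68.9% and 86.7% in wt and 41.5% and 38.7% in ddm1. In wt AT4TE14605 on chromosome 4 rose in CHH from 10.6% to 61.4% (adjusted p = 2e-13, Fisher's exact test), beside 35.2% and 52.7% in poliv. These 4 calls were also made with matched background and dispersion scaling together, and that of AT4TE14605 not with dispersion scaling alone. With 2 pooled libraries per group, a difference in 1 library cannot be told apart from one in both.

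Gene identifiers passed the same rule far less often, in 499 of 33290 cases (1.5%). Among protein-coding genes it was 312 of 27088 (1.15%), among transcribed pseudogenes 70 of 890 (7.87%) and among miRNA genes 20 of 272 (7.35%), by the classes of the TAIR10.1 RefSeq annotation. The 5 with the largest smaller ratio were AT3G00660, AT1G34042, AT5G33439, AT5G34829 and AT3G30812. AT5G33439, a noncoding RNA gene, gave 126, 150 and 1213 CHH calls in wt, poliv and ddm1 control and 239, 134 and 1027 after heat. AT3G00660 was different, with 62, 461 and 532 calls and 107, 884 and 545 after heat, so that poliv was at the level of ddm1 or above it. Of the 439 genes under the rule with CG and CHG values, 414 (94.3%) had at least 50% CG and 20% CHG methylation in wt control, a pattern found in 5.06% of all genes with these values.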

How the data were processed

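Per the labels and the study's methods, bisulfite libraries were made with the Pico Methyl-Seq kit and sequenced single-end. The submitters' processing notes name Trim Galore 0.6.2, Bismark 0.22.2, bedtools 2.27 and the TAIR10 genome. The paper also states that duplicate reads were removed with Bismark and that methylation was called with methylpy. How the removal of duplicates bears on the coverage ratios was not tested. How reads that fit several copies were placed, and the way libraries of a group were pooled, are not given in the sources used here. The authors deposited counts of methylated and of all cytosine calls per gene or TE, context and group, with 21 calls as the smallest coverage listed, and 18 columns of fractions that were not used.

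Levels are methylated over all calls, in percent. The study's 12 samples formed 6 groups of pooled columns, so no test over replicates was possible. Fisher's exact test, whose p is the smaller tail times 2, was adjusted by Benjamini-Hochberg and run in Python 3.11.15 with SciPy 1.17.1, pandas 2.3.3 and NumPy 2.4.6, and tested on simulated data. The simulated calls were independent, without spread between libraries or a difference in conversion, so the simulation does not bear on those limits of the test. Intervals are 95% Wilson intervals for levels and exact intervals for coverage ratios. Alternatives were other scalings, thresholds and minima, background matching with random seed 7, and dispersion scaling. The members, lists and named-TE rule were chosen with earlier results of these data known. The rule names extremes in coverage ratio, coverage, poliv/wt ratio, CG and CHH level, TEs at the threshold, ends of runs, listed TEs, genes with the largest ratio, and the largest called gains and losses; the text gives some of these, picked with their values known. The 32 well-covered TEs and the alternatives with a minimum of 1000 calls or with ratios divided by the all-TE median were added after seeing the data. TE positions, lengths, families and sequences were not analysed here, apart from family names in the study's list.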

Additional observations from a re-analysis of the deposited data

Results flagged for a closer look

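The rule could not take in TEs without a value in wt, and some of these gave many calls in ddm1. In 42 TEs both ddm1 groups had 100 CHH calls or more while at least 1 wt group had no value, and the reverse was found in 0 TEs. In the control pair alone 117 TEs with 100 calls or more in ddm1 were without a value in wt and 1 the other way round, with 78 and 0 for poliv. In the heat pair the counts were 7 and 0 for ddm1 and 0 and 15 for poliv. The wt control group had the fewest calls of all, 138837280 in CHH. AT2TE06625 on chromosome 2 had 131 calls in ddm1 control and 129 in ddm1 heat and no value in the 4 other groups. The smallest coverage listed is 21 calls, so no value means fewer calls, not none.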

How the results depend on the processing

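The set holds 3225 TEs. It would hold 5417 at the lower threshold tried, 452 at a ratio of 2, 1367 with a minimum of 1000 calls and 1097 with ratios divided by the all-TE median, the last 2 chosen after seeing the data. Other set sizes stayed within 1.5 times. The size by CG plus CHG coverage, 2734, came from only 8848 TEs tested (30.9%), and 1888 of the 2734 were members. Under the other scalings and contexts the members' median ddm1/wt ratio was 1.62 to 1.76 without heat and 1.66 to 1.85 after it. That contrast chose the members, and the contexts come from the same reads, so these ranges are a description and no check. For poliv/wt the medians were 1.02 to 1.07 and 1.00 to 1.04. Mean differences between ddm1 and wt kept their sign. In CG they were −79.3 percentage points in control and −82.0 after heat when weighted by coverage, −72.3 and −74.6 over all members with a value in a group, and −76.5 after heat with the chloroplast level subtracted. In CHG they were −48.8 and −47.4 weighted and −43.2 and −40.3 over all with a value. In CHH they were −4.19 and −4.45 weighted and −3.94 and −4.07 with the chloroplast level subtracted. The small mean differences between poliv and wt control turned to 0.0480 in CG and 0.435 in CHH when weighted. Those of heat in poliv turned to 1.85 in CHG over all with a value, and in CHH to −0.0584 weighted and −0.00946 with the chloroplast level subtracted. With dispersion scaling, the CG calls after heat were 5 in wt, 1 in poliv and 63 in ddm1, those of CHG 0, 1 and 46, and those of CHH 0, 0 and 3. For poliv against wt 6 CG, 22 CHG and 9 CHH calls were left. With a difference of at least 10 points the CG calls after heat were 24, 13 and 38, those of CHG 1, 4 and 18, and those of CHH 80, 28 and 23, beside 18 CG and 124 CHH calls for poliv against wt. With at least 50 calls 59 of 2249 members were called for poliv against wt in CHG, beside 12 higher and 305 lower of all 11189 TEs. With matched background 276 of 3225 were called for heat in ddm1 in CHH (background 4.14% higher and 1.68% lower). No paired analysis was possible because the columns pool both replicates of a group, and leaving out a replicate was not run for the same reason. Depth limits members with few calls most: 1858 of the 3225 have a mean under 1000.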

Other observations

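AT2TE20205 on chromosome 2 had the lowest ddm1/wt coverage of the TEs past the opposite limit in both pairs, judged by the larger of its 2 ratios. It gave 9084 CHH calls in wt control, 13583 in poliv control and 5658 in ddm1 control, and 13706, 11023 and 40 after heat. The ddm1/wt ratio was 0.408 without heat and 0.00333 after it, and poliv remained near wt.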
